A study of Arabidopsis thaliana and Setaria viridis and Zea mays with 22 samples.

Results

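Root tips of Setaria viridis, a small wild grass used as a model for millets, were taken apart in either of 2 ways and sequenced cell by cell. Of the 43212 grass cells listed for the series, 26622 came from this species: 10620 protoplasts in 3 libraries and 16002 nuclei in 2 libraries, chosen by the species and library columns of the grass table. All 5 libraries were labelled strain A10.1. Per the labels, seeds were soaked in 4% liquid smoke at 29 °C for 24 hours, then grown in paper rolls for 15 days at 28 and 24 °C with 16 hours of light and 8 of dark, and the last 0.2 cm of the root was cut. The age tag of the same samples reads 10 days. Protoplast replicate 1 was labelled with version 2 of the 10x Chromium 3' chemistry, and the other 4 libraries with version 3. Each cell had been placed by the authors in 1 of 19 clusters that carry numbers and no names, in an integration of maize, sorghum and Setaria. No genes are listed, so the clusters' identities could not be checked against markers.

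A protoplast is a plant cell freed of its wall by enzymes, and it carries the RNA of the cytoplasm together with that of the nucleus. A nucleus released by lysis needs no wall digestion and carries nuclear RNA alone, so it usually yields fewer molecules. Root tip cells differ in wall, size and depth in the organ: root cap and epidermis lie outside, and vascular cells lie inside behind the endodermis, the innermost layer of the cortex. The comparison asks which clusters each preparation recovered, and how many molecules and genes were found in them. Molecules were counted as UMIs, the random tags (unique molecular identifiers) that mark each captured transcript.

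The protoplast libraries were not alike. Replicates 2 and 3 held 4513 and 5126 cells, and a move of 4.24% of the cells between clusters would have made their compositions equal. Between replicate 1, with 981 cells, and replicates 2 and 3 that value was 38.4% and 39.8%, as large as the 34.0% to 39.0% that separated protoplast from nuclei libraries. The nuclei replicates, of 7451 and 8551 nuclei, differed by 6.67%. Replicates 2 and 3 still differed by more than counting noise (chi-square test of cells per cluster, p = 0.00134), as did the nuclei replicates (p = 8.06e-15), so all 5 libraries were kept as separate samples. Barcodes shared between pairs of Setaria libraries numbered 0 to 20, and replicate 1 shared 0 with all 42231 other grass cells, where the other 4 libraries shared 41 to 85. Whether the libraries stem from separate plantings is not said. P-values of the tests between preparations measure only variation among libraries, which could be technical. For the cluster tests that variation was estimated over all 13 grass libraries, maize and sorghum included. Results without protoplast replicate 1 are given for the library tests and for clusters whose call changed without it.

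Protoplasts of replicates 2 and 3 held many more UMIs and spread over a far wider range than nuclei. The middle 80% of cells, from the 10th to the 90th percentile, spanned 17.8-fold and 18.5-fold in UMIs in these replicates, 3.71-fold in protoplast replicate 1, and 2.33-fold and 2.26-fold in the nuclei. Cells above 8000 UMIs made up 74.4% and 77.6% of protoplast replicates 2 and 3, 9.07% of replicate 1, and 2.09% and 2.84% of the nuclei libraries. In UMIs per cell, replicate 1 therefore lay closer to the nuclei than to the other protoplasts. Maxima were 248537 and 249011 UMIs in protoplast replicates 2 and 3, 19562 in replicate 1, and 36006 and 30411 in nuclei. Totals ran from 4286818 UMIs in protoplast replicate 1 to 175885808 in replicate 3, and were 21038970 and 26778050 in the nuclei libraries.

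**Figure D1:**
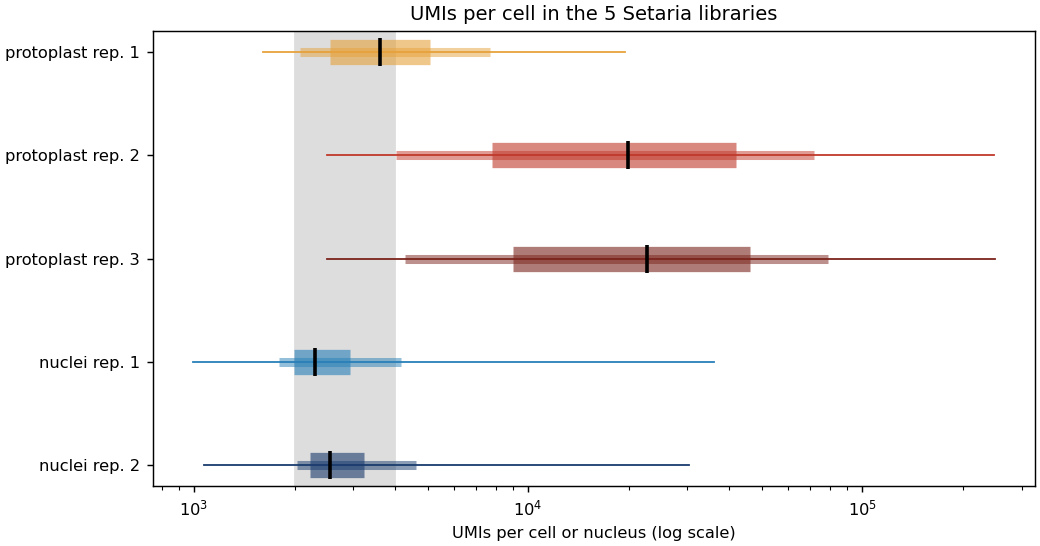
UMIs per cell in each Setaria library on a log axis. The thin line runs from the lowest to the highest cell, the middle band from the 10th to the 90th percentile, the thick band from the lower to the upper quartile, and the black mark is the median; grey marks 2000 to 4000 UMIs. Protoplast replicates 2 and 3 reach 248537 and 249011 UMIs, and replicate 1 lies near the nuclei.

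The log2 difference in library medians was 2.28 for UMIs (4.84-fold) and 1.19 for genes (2.28-fold). By exact two-sided permutation over libraries p was 0.2 for both, and 0.3 after adjustment over the 3 library tests. With 3 against 2 libraries, 0.1 is the smallest p the 10 splits allow. Without protoplast replicate 1 the differences were 3.13 and 1.74.

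Clusters 2 and 5 were scarce among protoplasts. Cluster 2 took 1.73%, 0.908% and 0.371% of protoplast replicates 1, 2 and 3, on 17, 41 and 19 cells, and 9.14% and 12.5% of nuclei replicates 1 and 2. Cluster 5 took 0.306%, 1.48% and 1.40% of the protoplast libraries and 11.0% and 10.6% of the nuclei libraries. Its value in protoplast replicate 1 rests on 3 cells, with an exact 95% binomial interval of 0.0631% to 0.891% for counting error only. Every protoplast library lay below both nuclei libraries in both clusters. The order within protoplasts was opposite: cluster 2 was highest in replicate 1 and cluster 5 lowest there. By edgeR's quasi-likelihood test the log2 fold was −3.58 (SE 0.54) for cluster 2, 12.0-fold lower in protoplasts, and −3.22 (SE 0.54) for cluster 5, 9.33-fold lower. Benjamini-Hochberg adjusted p was 6.74e-08 and 4.44e-07, with the spread shared over all 13 grass libraries. Fitted on Setaria libraries alone, the log2 folds were −3.54 (SE 0.69) and −3.25 (SE 0.63), with edgeR adjusted p = 0.0266 for both.

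Clusters 4, 6 and 18 were more common among protoplasts. Cluster 4 was the largest cluster of protoplast replicates 2 and 3, at 16.6% and 16.1%, and took 8.56% of replicate 1 and 4.08% and 3.44% of nuclei. It was thus 3.67-fold higher in protoplasts (log2 1.88, SE 0.52, edgeR adjusted p = 0.00348). Cluster 6 took 4.38%, 12.8% and 12.0% of the protoplast libraries and 4.24% and 3.30% of the nuclei libraries (log2 fold 1.38, SE 0.52, edgeR adjusted p = 0.0413). Cluster 18 took 1.43%, 2.61% and 4.14% against 1.15% and 0.936% (1.42, SE 0.55, edgeR adjusted p = 0.0413). In cluster 6 the gap between protoplast replicate 1 and the nearer nuclei library was small beside the gap between protoplast replicates. The group means of these clusters were 13.7% ± 4.49 against 3.76% ± 0.454 for cluster 4, 9.74% ± 4.65 against 3.77% ± 0.667 for cluster 6, and 2.73% ± 1.36 against 1.04% ± 0.155 for cluster 18 (SD, n = 3 and 2).

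These were the calls in 5 of 19 clusters tested, 26.3%, with 3 higher (15.8%) and 2 lower (10.5%) in protoplasts. Complete separation of the 3 protoplast from the 2 nuclei libraries was seen in 12 of 19 clusters (63.2%) and is no mark of the 5. Shares of a library are parts of a whole, so a cluster that takes more of it leaves less for the rest. With either nuclei library left out, clusters 4, 6 and 18 no longer passed (edgeR adjusted p 0.0746 to 0.267). Leaving out protoplast replicate 2 ended the call of cluster 6 (edgeR adjusted p = 0.112), and leaving out replicate 3 ended those of clusters 6 and 18 (0.0773 and 0.192). On Setaria libraries alone, clusters 4, 6 and 18 did not pass (edgeR adjusted p = 0.0545 for cluster 4 and 0.190 for clusters 6 and 18).

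**Figure D2:**
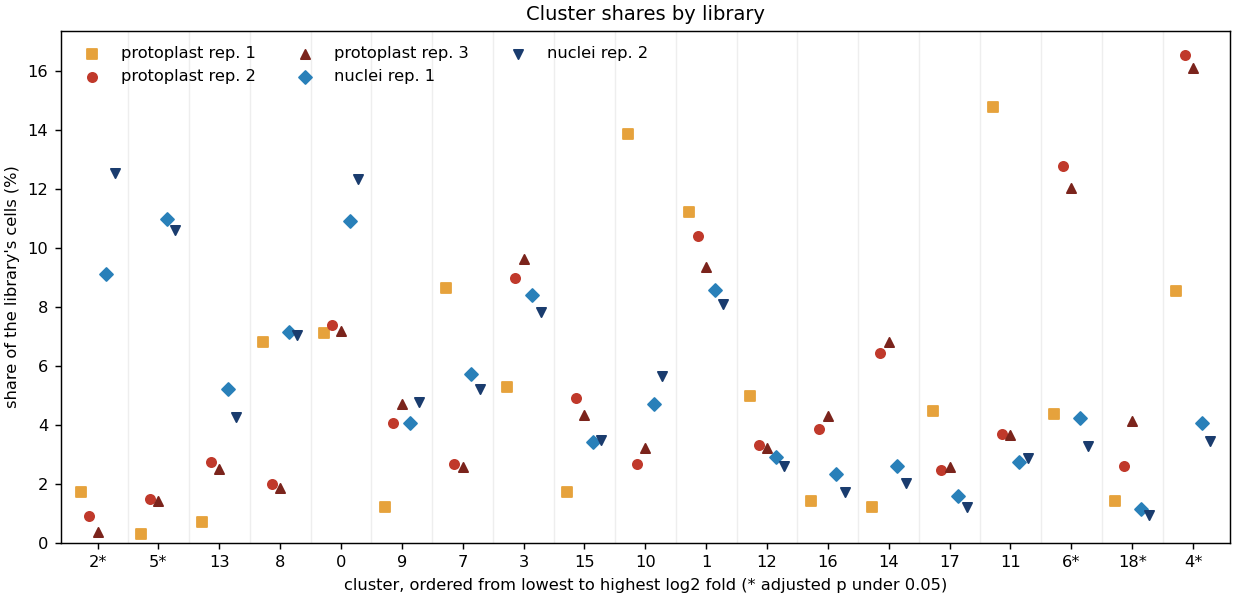
Share of each library's cells in each of the 19 clusters, in percent, 1 point per library, with clusters ordered by log2 fold and called clusters starred. The nuclei replicates lie close to each other in most clusters, as do protoplast replicates 2 and 3, while protoplast replicate 1 stands apart in clusters such as 10, at 13.9%, and 11, at 14.8%.

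Of the 14 clusters that did not pass, 7 separated the preparations completely: 0, 8 and 13 were lower in protoplasts and 1, 11, 12 and 17 higher. Cluster 0, the largest cluster of the nuclei by mean share, took 7.14%, 7.40% and 7.18% of protoplasts and 10.9% and 12.4% of nuclei (log2 −0.68, SE 0.48, edgeR adjusted p = 0.269). Its protoplast shares varied less between the 3 libraries than those of any other cluster. Cluster 1 took 9.34% to 11.2% of protoplasts and 8.09% to 8.59% of nuclei. Clusters 10 and 11 were the largest of protoplast replicate 1, with 13.9% and 14.8%, yet took 2.68% to 3.70% of replicates 2 and 3. In nuclei they took 2.75% to 5.65%. Protoplast replicate 1 lay outside the other protoplast libraries in every cluster: above both in 1, 2, 7, 8, 10, 11, 12 and 17, and below both in the rest.

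Without replicate 1, edgeR called 12 of 19 clusters, 6 higher and 6 lower in protoplasts, among them all 5 above. The added clusters were 14 (log2 fold 1.52), 16 (1.02) and 17 (0.83) on the higher side. On the lower side they were 8 (−1.88), 7 (−1.06), 13 (−0.86) and 10 (−0.81). For cluster 10 the sign differed from that with all libraries, 0.30. Whether chemistry, depth or the plants set replicate 1 apart cannot be told apart here, since 1 library carries them all.

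Shares were next compared at matched depth, counting only cells of 2000 to 4000 UMIs. This range held 507, 445 and 441 cells of protoplast replicates 1, 2 and 3, which is 51.7%, 9.86% and 8.60% of them, and 4702 and 6655 nuclei, 63.1% and 77.8%. It is thus the common depth of a nucleus and the shallow tail of protoplast replicates 2 and 3, which begin at 2505 and 2501 UMIs. Clusters 2 and 5 stayed scarce among protoplasts there, with smaller folds. Cluster 2 took 2.76%, 2.70% and 2.27% of protoplasts in the range and 8.97% and 13.5% of nuclei, which was 4.35-fold lower in protoplasts (log2 −2.12, SE 0.50, edgeR adjusted p = 0.00271). The protoplast replicates, apart by 4.68 times in all cells, came within 1.22 times of each other, on 14, 12 and 10 protoplasts. Counts this small cannot show that the replicates converged. Cluster 5 took 0.394%, 3.37% and 6.35% against 12.0% and 11.4% (−1.81, SE 0.64, edgeR adjusted p = 0.0437), and it did not pass without protoplast replicate 1 (−1.27, SE 0.55, edgeR adjusted p = 0.0605) or by DESeq2 (−1.57, SE 0.74, adjusted p = 0.131).

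Cluster 4 remained higher in protoplasts at matched depth, and cluster 13 was lower. Cluster 4 took 10.8%, 22.9% and 24.5% of protoplasts in the range and 3.66% and 3.68% of nuclei (log2 fold 2.40, SE 0.57, edgeR adjusted p = 0.00271), or 5.27-fold. Cluster 13 took 0.394%, 0.899% and 1.81% against 5.40% and 4.21% (−2.23, SE 0.68, edgeR adjusted p = 0.0195), on 2, 4 and 8 protoplasts. In all cells it did not pass (−1.19, SE 0.51, edgeR adjusted p = 0.0577). The range held 3.25% and 6.20% of its cells in protoplast replicates 2 and 3, against 9.86% and 8.60% of all their cells. Its share in the range thus also reflects its depth in protoplasts. The 4 calls of 19 in the range make 21.1%, with 1 higher (5.26%) and 3 lower (15.8%), and complete separation was seen in 9 of 19 clusters (47.4%). Without nuclei replicate 2 none of the 4 passed (edgeR adjusted p 0.0709 to 0.193), and without nuclei replicate 1 only cluster 2 did. Without protoplast replicate 2, clusters 5 and 13 did not pass (edgeR adjusted p = 0.0904 for cluster 13 and higher for cluster 5). Leaving out protoplast replicate 1 added clusters 0 (log2 fold −1.64), 8 (−1.61) and 14 (1.72), at edgeR adjusted p 0.0145 to 0.0227. Clusters 2, 4 and 13 still passed in that fit. Between 2505 and 4000 UMIs, a range set after the data were seen and reached by all 5 libraries, the 4 clusters passed again, together with 0 (−1.47) and 11 (2.04).

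Clusters 6 and 18 did not pass at matched depth. Cluster 6 differed by 0.73 on the log2 scale (SE 0.51, edgeR adjusted p = 0.292), with 6.11%, 8.09% and 3.85% of protoplasts and 4.64% and 2.64% of nuclei. Cluster 18 had −0.38 (SE 0.65, edgeR adjusted p = 0.668) on 6, 2 and 2 protoplasts, against 1.42 in all cells. Neither fold passed when all cells at or above 2505 UMIs were counted (0.55 and 0.59). Over the 19 clusters, 13 kept their sign between all cells and the range, and the largest shifts were those of clusters 18 (−1.81), 2 (1.46), 5 (1.41) and 16 (−1.35). Differences between the folds in all cells and in the range were not tested.

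**Figure D3:**
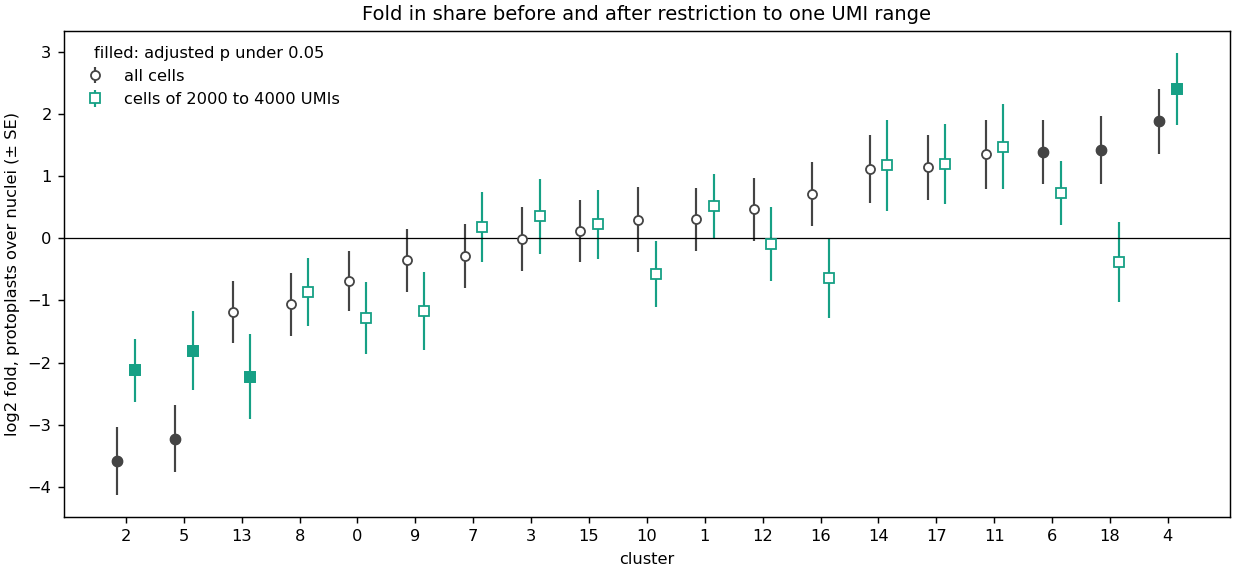
Log2 fold of each cluster's share, protoplasts over nuclei, with its standard error, in all cells (circles) and in cells of 2000 to 4000 UMIs (squares); filled points passed at adjusted p under 0.05. Clusters 2 and 5 move towards 0 in the range, from −3.58 to −2.12 and from −3.22 to −1.81, while cluster 13 moves away from it, from −1.19 to −2.23.

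The make-up of protoplasts changed with depth. In protoplast replicates 2 and 3, cluster 4 took 22.9% and 24.5% of cells from 2000 to under 4000 UMIs and 6.59% and 5.91% of those at 32000 UMIs or more. Cluster 3 went from 14.2% and 12.5% to 0.725% and 1.45% over the same steps. Cluster 2 went from 2.70% and 2.27% to 0.0659% and 0.207%, on 1 and 4 of the deepest cells. The 3 clusters thus took a smaller share of the deepest cells than of the shallowest in both replicates. Clusters 6, 0 and 13 were ordered the other way. Cluster 6 took 8.09% and 3.86% of the shallow cells and 18.2% and 19.0% of the deepest. Cluster 0 took 3.37% and 2.95% against 12.5% and 12.7%, and cluster 13 took 0.899% and 1.82% against 6.00% and 4.93%. Cluster 0 also took more of the deeper nuclei, at 9.25% and 10.4% from 2000 to under 4000 UMIs and 29.2% and 23.8% from 8000 to under 16000. In protoplast replicate 1 the deep cells were different: cluster 10 took 40.0% of the 80 cells from 8000 to under 16000 UMIs.

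Median UMIs per cluster differed little among nuclei and greatly among protoplasts. In nuclei replicates 1 and 2 the medians of the 19 clusters ran from 2091 to 3334 and from 2332.5 to 3982, a span of 1.59-fold and 1.71-fold, lowest in cluster 4 and highest in cluster 14. In protoplast replicates 2 and 3 they ran from 5448 to 61488 and from 3982 to 61912, a span of 11.3-fold and 15.5-fold, lowest in cluster 2 and highest in cluster 13. Protoplast replicate 1 spanned 4.27-fold over the 17 clusters with at least 10 cells, from cluster 6 to cluster 14. The lowest and highest clusters thus differed between replicate 1 and the other protoplast libraries.

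For a test, each cluster's median log2 UMIs were set against the median over clusters of its library, which removes the overall depth. Cluster 13 held relatively more in protoplasts, with medians of 61488 and 61912 UMIs in replicates 2 and 3 against 2326 and 2599 in nuclei. Its relative value differed by 1.24 on the log2 scale (SE 0.15, limma adjusted p = 0.000373), or 2.36-fold. Clusters 5 and 2 held relatively fewer. Cluster 5 had medians of 10840 and 4872 UMIs against 2404.5 and 2634, and differed by −1.88 (SE 0.30, limma adjusted p = 0.00162). Replicate 1 gave no value for clusters 5 and 13, with 3 and 7 cells. Cluster 2 had medians of 2539, 5448 and 3982 UMIs in protoplasts and 2160 and 2385 in nuclei, and differed by −1.71 (SE 0.49, limma adjusted p = 0.0320).

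In the scarce cluster 2, then, a protoplast held 1.06 to 2.52 times the median UMIs of a nucleus, by ratio of each protoplast library to either nuclei library, whereas in cluster 13 replicates 2 and 3 held 23.7 to 26.6 times. The shallower protoplast replicate 1 enters the ratios of cluster 2 only. Its median in cluster 13 was 8752 UMIs on 7 cells. The 3 calls make 15.8% of 19 clusters, with 1 higher (5.26%) and 2 lower (10.5%), and complete separation was seen in 12 (63.2%). The call of cluster 2 was lost without any 1 library other than protoplast replicate 1 (limma adjusted p 0.133 to 0.229). With cells below 2505 UMIs left out it was −1.66 (SE 0.53, limma adjusted p = 0.0612). Fitted on Setaria libraries alone, cluster 13 passed and cluster 5 did not (−1.88, SE 0.41, limma adjusted p = 0.0810). Clusters 5 and 13 passed in each leave-one-out fit that could test them, and could not be tested without protoplast replicate 2 or 3.

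**Figure D4:**
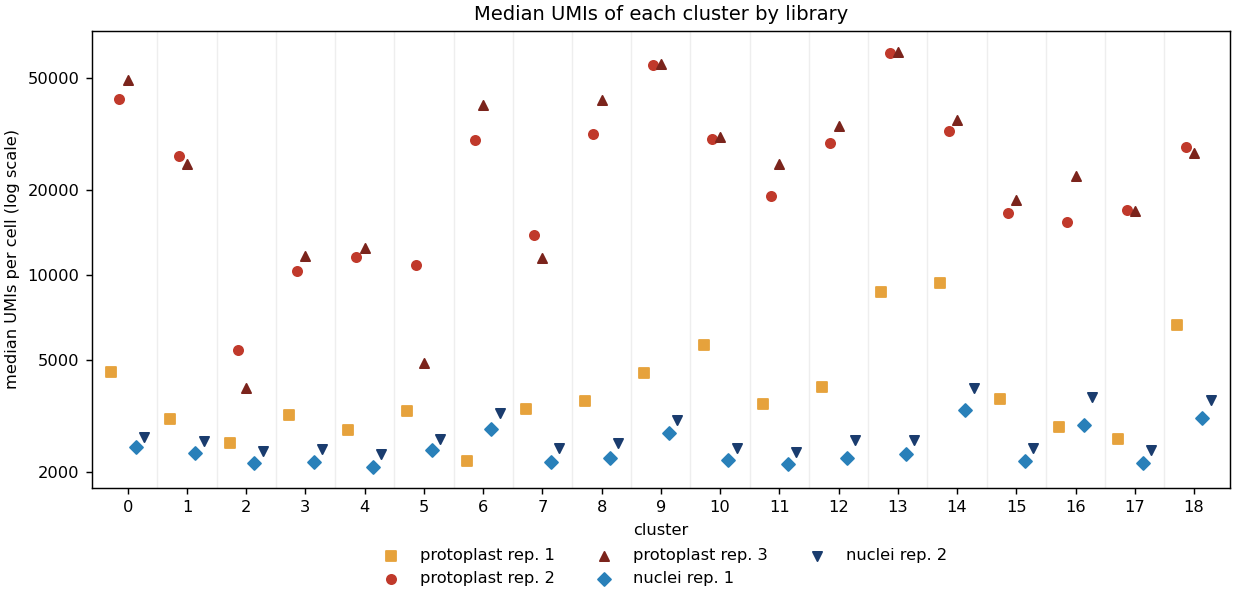
Median UMIs per cell of each cluster in each library, on a log axis. Nuclei lie in a narrow band from 2091 to 3982 UMIs in all 19 clusters, and protoplast replicates 2 and 3 range from 3982 in cluster 2 to 61912 in cluster 13; points of protoplast replicate 1 in clusters 5 and 13 rest on 3 and 7 cells.

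The other 16 clusters did not pass, with differences from −0.85 (cluster 16, SE 0.29) to 0.59 (cluster 9, SE 0.32; cluster 0, SE 0.32). Relative to their library, clusters 3, 4, 16 and 17 lay lower and 0, 8, 9, 10 and 12 higher in all protoplast libraries than in both nuclei libraries. Cluster 6 showed the widest split among protoplasts, with medians of 2190 UMIs in replicate 1, below both nuclei libraries at 2845.5 and 3251, and 30209 and 40045 in replicates 2 and 3. Without replicate 1, limma called 10 of 19 clusters: 8, 9 and 13 higher, and 2, 3, 4, 5, 7, 16 and 17 lower. The largest of the added differences were those of clusters 3 (−1.15), 4 (−0.97) and 7 (−0.95).

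Because depth differs by cluster, a cluster's part of the sequenced molecules is not its part of the cells. Cluster 13 took 2.73% and 2.52% of the cells of protoplast replicates 2 and 3 and 6.74% and 5.53% of their UMIs, against 5.02% and 4.22% of UMIs in nuclei. Cluster 4, first by cells, took 8.55% and 7.71% of UMIs. Cluster 6 was first by UMIs, with 14.4% and 15.3%, and 5.44% and 4.56% in nuclei. Cluster 2 gave 0.259% and 0.186% of protoplast UMIs and 7.74% and 10.7% of nuclei UMIs. In replicate 1 cluster 10 was first, with 19.9%. The effective number of clusters, a measure of evenness that equals the number of clusters if all are equally common, was 13.5, 14.6 and 14.8 by cells in the protoplast libraries and 16.2 and 15.4 in the nuclei libraries. These values are descriptions with no test.

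Genes were compared at a depth of 3000 UMIs, by moving cells of 2000 to 4000 UMIs along the slope of log2 genes on log2 UMIs within clusters of their own library. At that depth nuclei held somewhat more genes than protoplasts. Over the 11 clusters with at least 10 such cells in all 5 libraries, the median was 1410, 1700 and 1649 genes in protoplast replicates 1, 2 and 3 and 1757 and 1752 in the nuclei replicates. All 3 protoplast libraries lay below both nuclei libraries. The log2 difference was −0.15 (exact two-sided permutation p = 0.3, also after adjustment over the 3 library tests), and −0.03 without replicate 1. With no correction for depth inside the range it was 0.08, of the opposite sign. The median cell of the range held 2874, 3178 and 3143 UMIs in the protoplast libraries and 2425 and 2505 in the nuclei libraries. Inside the range genes also grew more slowly with UMIs in the protoplast libraries, with slopes of 0.67, 0.64 and 0.66 against 0.72 and 0.73. The slopes were not tested, and the protoplasts lay deeper in the range than the nuclei.

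Relative to the median over clusters of their library, clusters 14 and 2 had more genes at 3000 UMIs in protoplasts than in nuclei. That median was taken over 13, 13 and 14 clusters with a value in protoplast replicates 1, 2 and 3. In each nuclei library it was taken over 19, so the cluster sets differ. Cluster 14 had 1906 and 1954 genes in protoplast replicates 2 and 3, the most of any cluster there, and 1703 and 1689 in nuclei, among the fewest. Replicate 1, with 2 cells of cluster 14 in the range, gave no value. The relative difference was 0.21 on the log2 scale (SE 0.03, limma adjusted p = 0.00211), or 1.16-fold. Cluster 2 had 1456, 1809 and 1798 genes in protoplasts and 1725 and 1717 in nuclei, with a relative difference of 0.09 (SE 0.02, limma adjusted p = 0.00211). These 2 of 13 clusters tested make 15.4%, and complete separation was seen in 7 of 13 (53.8%). With no correction for depth inside the range neither passed, at 0.02 (SE 0.07, limma adjusted p = 0.960) and 0.15 (SE 0.06, limma adjusted p = 0.129). From 4000 to 8000 UMIs, set to 6000, cluster 14 passed again (0.17, SE 0.03, limma adjusted p = 0.00927).

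Cluster 3 had the fewest genes at 3000 UMIs in protoplast replicates 2 and 3, with 1543 and 1460, and 1737 and 1729 in nuclei, which is within the range of other clusters there. In replicate 1 it had 1387, and the relative difference over all libraries was −0.12 (SE 0.05, limma adjusted p = 0.102). Nuclei clusters spanned 1683 to 1793 genes in replicate 1 and 1679 to 1780 in replicate 2, lowest in cluster 18 and highest in cluster 7. Protoplast clusters spanned 1341 to 1466, 1543 to 1906 and 1460 to 1954. Without replicate 1, limma called 10 of 13 clusters. Clusters 0, 2, 5 and 14 were higher in protoplasts, and 1, 3, 4, 6, 7 and 15 lower, with cluster 3 at −0.18 and cluster 7 at −0.14. Clusters 9, 12, 13, 16, 17 and 18 had too few protoplasts in the range to be tested.

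**Figure D5:**
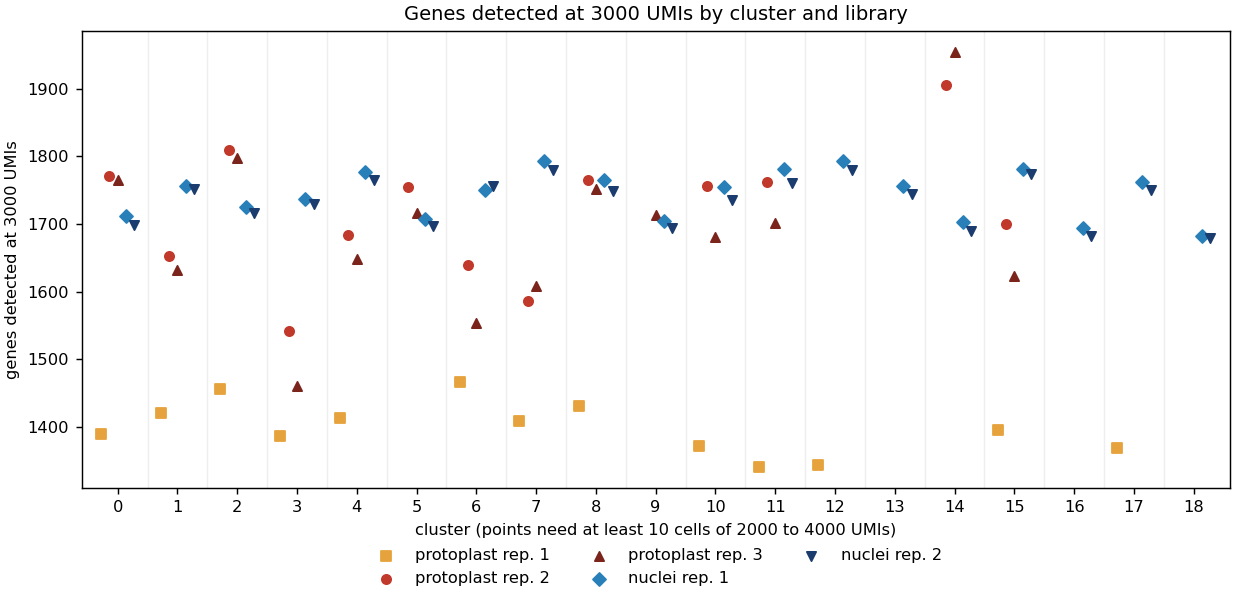
Genes detected at 3000 UMIs in each cluster and library, for clusters with at least 10 cells of 2000 to 4000 UMIs in that library; the axis does not start at 0. Nuclei lie between 1679 and 1793 genes in every cluster, protoplast replicate 1 below 1500 throughout, and protoplast replicates 2 and 3 between 1460 in cluster 3 and 1954 in cluster 14.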

How the data were processed

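The deposited table lists, for each cell, counts of UMIs and of detected genes, its library and its cluster. These deposited counts are raw. Cell Ranger 5.0.1 and Seurat 4.0 are named in the submitters' processing notes. Clusters come from an integration of all grass libraries at resolution 0.6, per the file headers. The sources used here do not give the filter on cells, any removal of doublets or the Setaria genome used. No doublets were called here. Protoplast minima of 1611, 2505 and 2501 UMIs and nuclei minima of 993 and 1069 may reflect different filters. The library whose name has no number was taken as protoplast replicate 1 by elimination. From the same table, 3 maize libraries of another study were not used.

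Libraries served as replicates. For shares, cells per cluster entered a robust quasi-likelihood fit without trend in edgeR 4.0.16, with total cells as library size, for clusters of at least 10 cells. Relative UMIs and genes were tested with limma 3.58.1 (robust eBayes) where a cluster had at least 10 cells in at least 2 libraries of each preparation. Each fit held all 13 grass libraries, maize and sorghum included, which share 1 spread. Most of them were nuclei, and maize and sorghum were grown for fewer days and cut as longer tips. Setaria protoplast libraries varied more than Setaria nuclei libraries in most clusters. In cluster 2, relative log2 UMIs had an SD of 1.17 in protoplasts and 0.036 in nuclei. Standard errors may therefore understate the protoplast spread. The sorghum nuclei libraries entered by group, since their names do not settle their numbers. P-values were two-sided and adjusted by Benjamini-Hochberg over clusters, with a threshold of 0.05. Fits were run on simulated data in which protoplasts and nuclei had equal spread. That check cannot show how the fits behave when protoplasts vary more. All clusters are named, and called ones get full statistics. Alternatives included DESeq2 1.42.0, other UMI ranges, Setaria libraries alone and each library left out. The members, clusters and tests were chosen with earlier results of these data known.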

Additional observations from a re-analysis of the deposited data

How the results depend on the processing

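Clusters 2 and 5 were called lower in share under every alternative except the replicate block, and every called cluster kept its sign under all alternatives that gave it a value. Share calls, 5 as reported, numbered 3 from the log odds of shares in limma with each preparation given its own variance, 2 with Setaria libraries alone (clusters 2 and 5), and 2 to 12 with a library left out. In the range of 2000 to 4000 UMIs, 4 calls became 8 from 4000 to 8000 UMIs and 0 to 6 with a library left out. Relative UMI calls, 3 as reported, numbered 1 with Setaria libraries alone and 0 to 10 with a library left out. Calls for relative genes, 2 as reported, numbered 4 against all cells of the range, 4 against the clusters with a value in all 5 libraries (chosen after seeing the data), 1 with at least 20 cells, 1 with no slope (cluster 6, lower), 1 with Setaria libraries alone and 1 to 10 with a library left out.

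Numbers 1 and 2 occur in both preparations. Deviations of same-numbered libraries from their group means correlated at −0.46 and −0.31 over 19 clusters, and nothing says that the numbers mark a shared batch. The deviations of the 2 nuclei libraries mirror each other, so these correlations are not independent. With the replicate number as a block, on Setaria libraries alone, 0 clusters were called in each of the 4 tests, with 1 residual degree of freedom per cluster.

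Leaving out 1 library moved the log2 difference per library between 1.80 and 3.13 for UMIs, 0.90 and 1.74 for genes, and −0.20 and −0.03 for genes at 3000 UMIs, which reversed to 0.079 with no slope. The causes were not tested. By construction, the block fit uses the same libraries as the fit on Setaria alone and adds the replicate number as a term. The unsloped value leaves depth unequal. Protoplast replicate 1 limits rare clusters most: 3 cells are 0.306% of it.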
